A study of Homo sapiens with 6 samples.

Results

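PBRT16 and PBRT15 are 2 melanoma lines that were grown out of tumors resistant to the BRAF inhibitor PLX8394, and the question here was how their transcriptomes differed at the same dose of the drug. The comparison took 4 libraries, 2 of PBRT16 and 2 of PBRT15, each line in 500 nM PLX8394. Its members were all genes with a value of 10 or more in at least 2 of these 4 libraries, which kept 15913 of 60617 gene IDs. Differences are given throughout as PBRT16 relative to PBRT15.

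Both lines descend from 1205Lu TR, a derivative of the human melanoma line 1205Lu, which carries the BRAF V600E mutation and which the study fitted with a reporter of ERK activity. The parental cells were given DMSO, the drug vehicle, and their 2 libraries served here to estimate the spread and to place each level. PBRT is short for paradox breaker resistant tumor, after the class of inhibitor that PLX8394 belongs to. The study labels both lines as made in vivo, so the tumors were grown from the cell line and not taken from patients. All cells were cultured in MCDB153 medium with Leibovitz L-15, 2% serum and insulin. Each PBRT line came from 1 tumor and was carried as 1 line, so the comparison is between these 2 lines and not between kinds of resistance. The prefix of the sample titles also differs between the lines, so whatever it marks cannot be told apart from the line. No source states whether the libraries of a line were separate cultures. The spread that the p-values rest on is therefore that between libraries and may be technical.

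BRAF V600E signals to the kinases MEK and ERK without needing an active RAS, and ERK switches on transcription factors of the ETS and AP-1 families together with its own inhibitors of the Sprouty and DUSP families. Paradox breakers inhibit mutant BRAF while avoiding the ERK activation that other RAF inhibitors cause in cells with active RAS. Melanoma cells can leave the melanocytic state, which rests on the transcription factors SOX10 and MITF, for dedifferentiated states with mesenchymal matrix genes.

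The labelled cell type was checked against marker genes. Of 9 melanocytic markers only 2 reached the minimum in the PBRT lines. SOX10, the lineage transcription factor, had values of 0 and 0.791 in PBRT15 and 1.49 and 0.778 in PBRT16, against 4360 and 4103 in the parental libraries, and the pigment enzyme TYR was at 0 in all 4 PBRT libraries. MITF was measured in both lines, at 823 and 927 in PBRT15 and 2209 and 2159 in PBRT16, which was higher in PBRT16 (log2 fold change 1.32, SE 0.12, adjusted p = 0.00499). The parental libraries, high for SOX10, were lower for MITF than either line, at 109 and 113. Vimentin (VIM), an intermediate filament of mesenchymal and melanoma cells, was at 121848 and 112115 in PBRT15 and at 111753 and 120377 in PBRT16, with groups that overlapped.

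The 4 libraries separated by line: PBRT16 and PBRT15 lay apart on the first principal component, with 79.9% of the variance. Libraries of a line correlated at r = 0.9843 in PBRT15 and 0.9859 in PBRT16 across the 15913 genes, which are not independent replicates. A gene was called higher or lower when limma, fitted on log2(value + 1) with all 6 libraries, gave it a fold of 2 or more together with an adjusted p no higher than 0.05. PBRT16 was higher for 741 genes (4.66% of those tested) and lower for 795 (5.0%), together 9.65%. The counts of called members in the gene lists below stand beside these shares. Most genes differed little, since the middle of the distribution of log2 fold changes ran from -0.34 to 0.32 between the 25th and 75th percentiles around a median of -0.001. Among called genes the median fold was 3.23 for higher and 3.56 for lower ones. A fold of 10 or more was reached by 112 higher and 175 lower genes, and a fold of 100 or more by 8 and 29. The values of both lines did not overlap for 63.6% of all tested genes, so separation of the libraries alone says little about a gene here.

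**Figure D1:**
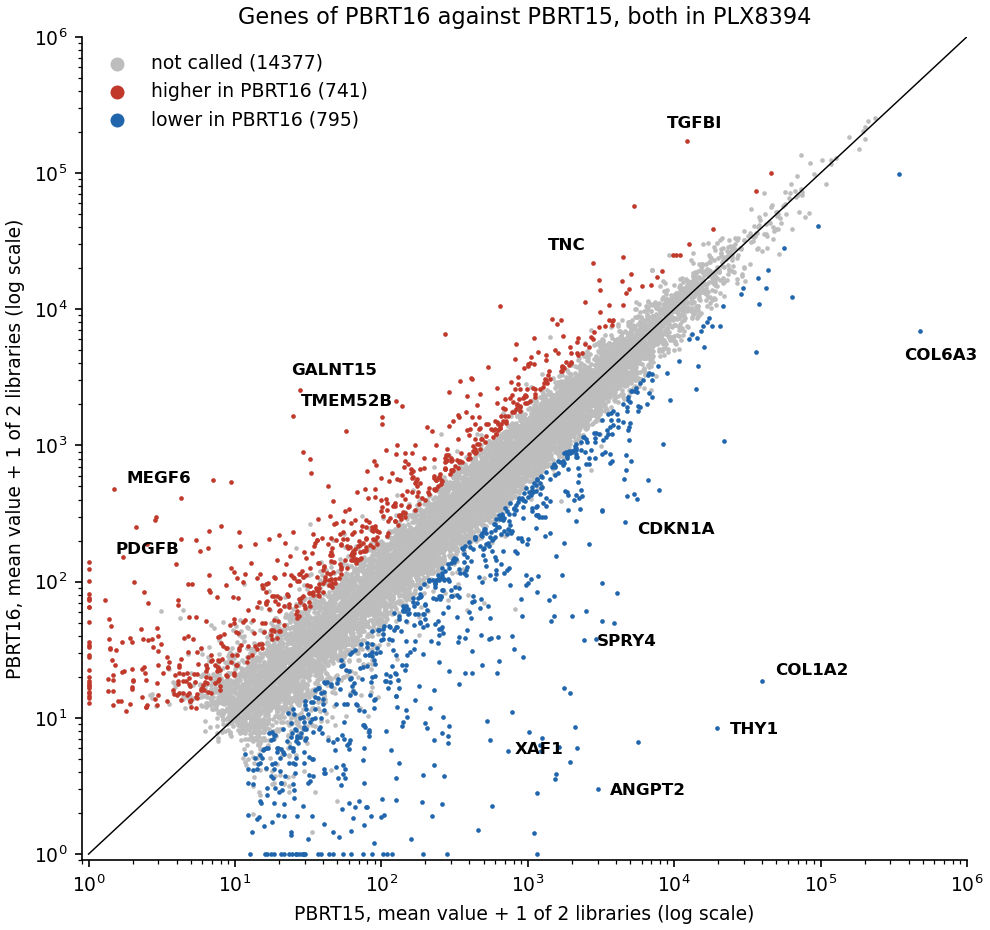
Mean value + 1 of each tested gene in PBRT15 (horizontal, log axis) and PBRT16 (vertical, log axis), in deposited signal units; red points are the 741 genes called higher in PBRT16, blue points the 795 called lower and grey points the rest. Called genes spread over the whole range of levels, and those at the lower left edge of an axis were near 0 in 1 line.

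These counts depended on having 2 libraries per line. Without PBRT16 replicate 1 the fit called 386 genes higher and 516 lower, without PBRT16 replicate 2 it called 348 and 525, without PBRT15 replicate 1 it called 435 and 488, and without PBRT15 replicate 2 it called 621 and 485. Calls were more common among genes of low level: 7.75% higher and 7.29% lower at a mean up to 50, against 2.49% and 3.04% at a mean of 1000 to 5000. Of the tested genes, 335 passed the minimum in PBRT16 alone and 345 in PBRT15 alone, and 193 and 217 of these were called, so a good part of the calls were genes that 1 line hardly had. The gene lists below also held such members. Receptor tyrosine kinases, ion channels and developmental transcription factors outside the HOX clusters had 6 each, and TGF-beta and BMP genes had 5.

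The genes with the largest differences in the lower direction were ones that PBRT15 had at high level and PBRT16 nearly lacked. THY1, a surface glycoprotein of fibroblasts and neurons, was at 19573 and 19758 in PBRT15 and at 8.14 and 6.84 in PBRT16 (log2 fold change -11.18, SE 0.78, adjusted p = 0.00257). COL1A2, the second chain of type I collagen, was at 38540 and 41287 against 19.9 and 15.4 (-11.07, SE 0.27, adjusted p = 0.000126). The parental libraries held 0 and 4.46 of THY1 and 14 and 23.2 of COL1A2, so PBRT15 was the line with the high level. The antisense transcript THY1-AS1 was at 1158 and 1152 in PBRT15 and at 0 in both PBRT16 libraries. The library kit kept strand, but whether the counting used it is not stated, so reads of THY1 and THY1-AS1 may not have been told apart.

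Other genes that PBRT16 nearly lacked had differing roles. ANGPT2, a ligand of the endothelial receptor TIE2, was at 3297 and 2700 in PBRT15 and at 1.99 and 2.06 in PBRT16. ISLR, a secreted protein with leucine-rich repeats, was at 5255 and 6026 against 6.41 and 4.82, and CD248 (endosialin), a surface protein of pericytes and fibroblasts, was at 1770 and 2104 against 1.8 and 5.63. The parental libraries were low for all 3, at 5.93 and 6.7 for ANGPT2, 4.62 and 6.1 for ISLR and 0 and 2.04 for CD248. EDN3 encodes endothelin 3, a peptide that acts on melanocyte precursors. It was at 238 and 322 in PBRT15, while PBRT16 and parental libraries all listed it at 0. Other genes were present in the parental cells as well: the synaptic vesicle protein SV2A was at 635 and 661 in parental libraries, 1032 and 1179 in PBRT15 and 0 and 0.875 in PBRT16, and the dehydrogenase ALDH7A1 was at 1009 and 937, 1101 and 1228, and 3.63 and 0. The phosphatase gene PTPRD was at 289 and 469 in parental libraries, 553 and 593 in PBRT15 and 0.556 and 1.93 in PBRT16, and the protease-activated receptor gene F2RL1 was at 363 and 396, 1911 and 1374, and 4.16 and 6.09. For genes this close to 0 the fitted fold depends on the added 1 and is no bound on the change.

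The largest increases were in genes of lower level. TMEM52B, a transmembrane protein, was at 19.9 and 27.8 in PBRT15 and at 1719 and 1562 in PBRT16 (log2 fold change 6.06, SE 0.18, adjusted p = 0.000214). MEGF6, a protein with EGF-like repeats, was at 0.496 and 0.467 against 606 and 344, and the platelet-derived growth factor gene PDGFB was at 0.78 and 1.47 against 275 and 228. GALNT15, a glycosyltransferase that starts O-linked chains, was at 14.6 and 38.7 against 1879 and 3259. The zinc finger genes ZNF528 and ZNF100 were listed at 0 in both PBRT15 libraries and stood at 113 and 134 and at 138 and 138 in PBRT16. Several of these genes were present in the parental cells as well: the synaptic adhesion gene NRXN3 was at 926 and 755 in parental libraries, 2.69 and 9.45 in PBRT15 and 546 and 562 in PBRT16, and the tetraspanin TSPAN7 was at 363 and 322, 1.13 and 5.48, and 434 and 380. The peptide receptor gene NPY4R was at 0 and 8.77 in PBRT15 and 202 and 199 in PBRT16, but NPY4R2 is a near-identical copy (8.14 and 0 against 98 and 92), and reads could have been split between them.

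Interferon-stimulated genes were the list with the most members in 1 direction. These genes are switched on by type I interferon through a complex with STAT2 and IRF9, and their products block virus replication. Of 62 tested members, 27 were lower in PBRT16 and 0 higher, with a median log2 fold change of -1.15 beside -0.001 over all tested genes and beside 5.0% of all genes called lower. All but 2 of the 62 had a fitted change below 0. For the 27 lower genes the parental mean was at least 2-fold below both lines in 18 and within 2-fold of PBRT16 only in 8.

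XAF1, an interferon-induced binding partner of the apoptosis inhibitor XIAP, was at 2133 and 2194 in PBRT15 and at 7.39 and 2.62 in PBRT16 (log2 fold change -8.62, SE 0.40, adjusted p = 0.000794). OASL, a relative of the enzymes that sense double-stranded RNA, was at 1944 and 1466 against 138 and 83.7 (-3.96, SE 0.28, adjusted p = 0.00261). IFITM1, a membrane protein that hinders virus entry, was at 4803 and 5897 against 706 and 168 (-3.95, SE 0.69, adjusted p = 0.024). It has close paralogs, so its reads may be shared. In each of these genes both PBRT16 libraries lay below both PBRT15 libraries, and the parental libraries were at 0 for XAF1 and OASL and at 1.22 and 2.2 for IFITM1.

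Genes of the pathway's signaling were mixed in the size of their change. STAT2 was at 4941 and 4830 in PBRT15 and 1584 and 1142 in PBRT16 (log2 fold change -1.86, SE 0.18, adjusted p = 0.00607). IRF9 had a log2 fold change of -0.82 (adjusted p = 0.0377) and IRF1 of -0.71 (adjusted p = 0.0472), both under the fold of 2. The RNA sensor RIGI was lower, at 3994 and 2764 against 1110 and 691, as was the ubiquitin-like modifier ISG15, at 1465 and 1153 against 408 and 187. The receptor chain IFNAR1 was at 1691 and 1517 against 2383 and 2393 (log2 fold change 0.58, adjusted p = 0.0349, under the fold of 2). IFIT1, which binds viral RNA, was at 4228 and 3094 against 953 and 527. STAT2, IRF1, IRF9, RIGI, ISG15, IFIT1 and IFNAR1 were picked after their values were seen.

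Within PBRT16, replicate 1 was above replicate 2 in 55 of the 62 genes and below it in 6, whereas in PBRT15 the split was 35 and 27. The number called lower was 28 without PBRT16 replicate 1, 20 without PBRT16 replicate 2, 17 without PBRT15 replicate 2 and 12 without PBRT15 replicate 1.

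The promoters of a few of these genes are shown because the list shares a known sequence element. The interferon-stimulated response element, bound by the complex with STAT2 and IRF9, has a core of repeated GAAA blocks. The motif GAAANNGAAA, in which N is any base, was searched on both strands in 300-base windows from 250 bases before to 50 bases after the gene start (RefSeq, GRCh38.p14). It occurred in 12 of 19 lower interferon-stimulated genes with a window (63.2%) and in 23 of 31 that were not called (74.2%), against 456 of 11327 tested genes with a window (4.03%) and 1255 of all 35116 windows (3.57%). The motif therefore marked the list and was about as common in members called lower as in those not called. Of the 62 tested members 60 had a change below 0, so this comparison could not set lower genes against unchanged ones. HERC5, an E3 ligase for ISG15 that was at 40.3 and 32.1 in PBRT15 and listed at 0 in PBRT16, had 3 matches, 2 of them overlapping, at chr4:88456869-88457168. IFITM1 had 2 matches at chr11:313790-314089 and IFIT1 had 2 at chr10:89392373-89392672. IFI44, which was at 163 and 197 against 24.4 and 7.78 and encodes a cytoplasmic antiviral protein, had 1 at chr1:78649539-78649838 in 1 of its 2 windows, and its neighbour and paralog IFI44L had 2 at chr1:78620198-78620497. Neither of the 2 windows of XAF1, the member with the largest change, held the motif. All windows below are on the plus strand, 5′ to 3′, with the matches of the motif or its reverse complement in capitals.
HERC5: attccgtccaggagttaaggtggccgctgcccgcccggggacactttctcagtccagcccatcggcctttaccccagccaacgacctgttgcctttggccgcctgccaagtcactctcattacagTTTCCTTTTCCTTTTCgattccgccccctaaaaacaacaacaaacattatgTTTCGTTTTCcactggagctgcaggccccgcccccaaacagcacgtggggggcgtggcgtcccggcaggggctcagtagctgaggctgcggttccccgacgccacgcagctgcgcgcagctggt
IFITM1: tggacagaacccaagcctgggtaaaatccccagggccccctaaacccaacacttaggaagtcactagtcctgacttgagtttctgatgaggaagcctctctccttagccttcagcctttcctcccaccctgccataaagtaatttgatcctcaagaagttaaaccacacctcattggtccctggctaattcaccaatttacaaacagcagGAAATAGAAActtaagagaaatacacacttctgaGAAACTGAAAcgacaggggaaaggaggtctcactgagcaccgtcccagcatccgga
IFI44: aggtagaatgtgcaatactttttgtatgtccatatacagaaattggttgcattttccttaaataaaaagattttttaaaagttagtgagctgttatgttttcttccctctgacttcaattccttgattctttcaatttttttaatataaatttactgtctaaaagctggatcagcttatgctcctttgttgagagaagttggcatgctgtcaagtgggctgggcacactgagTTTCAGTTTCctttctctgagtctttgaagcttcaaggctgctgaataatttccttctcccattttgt
IFI44L: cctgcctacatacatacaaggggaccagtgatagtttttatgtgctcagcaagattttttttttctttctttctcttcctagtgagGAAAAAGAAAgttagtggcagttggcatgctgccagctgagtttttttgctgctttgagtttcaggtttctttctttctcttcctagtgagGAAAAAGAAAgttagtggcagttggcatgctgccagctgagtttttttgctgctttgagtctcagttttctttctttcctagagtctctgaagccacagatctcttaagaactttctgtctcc
IFIT1: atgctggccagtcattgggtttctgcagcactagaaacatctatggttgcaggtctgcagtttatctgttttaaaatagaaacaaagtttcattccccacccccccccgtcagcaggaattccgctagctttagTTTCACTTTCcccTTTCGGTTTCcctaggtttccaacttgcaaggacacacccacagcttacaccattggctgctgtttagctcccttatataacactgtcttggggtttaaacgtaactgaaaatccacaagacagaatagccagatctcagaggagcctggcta

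Targets of the tumor suppressor p53 formed the next list. The transcription factor p53 responds to DNA damage and switches on inhibitors of the cell cycle, apoptosis genes and its own inhibitor MDM2. Of 39 tested members 17 were lower in PBRT16 and 0 higher, with a median log2 fold change of -1.05, and 35 had a change below 0. The share lower was 43.6%, beside 5.0% of all tested genes. CDKN1A, the cell-cycle inhibitor p21, was at 3365 and 5859 in PBRT15 and at 252 and 296 in PBRT16 (log2 fold change -4.02, SE 0.30, adjusted p = 0.00293). EDA2R, a receptor of the TNF receptor family, was at 230 and 294 against 8.75 and 9.39 (-4.70, SE 0.16, adjusted p = 0.000313), and the antiproliferative gene BTG2 was at 323 and 772 against 62 and 44.9 (-3.22, SE 0.43, adjusted p = 0.0131). The stress cytokine gene GDF15 was low in both lines, at 26.9 and 129 against 1.2 and 1.26. For these genes PBRT15 was near the parental level, which for CDKN1A was 4268 and 5155 and for EDA2R 431 and 474.

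This held for most of the list: in 13 of the 17 lower genes the parental mean was within 2-fold of PBRT15 only. MDM2 was at 4255 and 3930 in PBRT15 and 1787 and 1626 in PBRT16 (log2 fold change -1.26, SE 0.12, adjusted p = 0.0062), the apoptosis effector BAX was at 2364 and 2490 against 1110 and 1203 (-1.07, SE 0.12, adjusted p = 0.00793), and the death receptor FAS was at 741 and 708 against 320 and 334. MDM2, BAX and FAS were picked after their values were seen. The count of lower p53 targets was 8 without PBRT16 replicate 1 and 10 without PBRT16 replicate 2, and without PBRT15 replicate 2 it was 12 with 1 member called higher.

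Genes that report ERK signaling were lower in PBRT16 more often than higher. Of 34 tested members 13 were lower and 2 higher, with a median log2 fold change of -0.56. SPRY4, a feedback inhibitor of receptor signaling to RAS, was at 2525 and 2349 in PBRT15 and 33.5 and 39.2 in PBRT16 (log2 fold change -6.03, SE 0.14, adjusted p = 0.000126). DUSP6, a phosphatase of ERK, was at 2494 and 3897 against 49.8 and 145 (-5.18, SE 0.54, adjusted p = 0.00688). The ETS factor ETV1 was at 1475 and 1651 against 100 and 207 (-3.43, SE 0.35, adjusted p = 0.00677), while its relatives ETV5 (3809 and 3164 against 1131 and 1443) and ETV4 (561 and 415 against 215 and 217) were lower by smaller amounts. CCND1, the cyclin that drives entry into the cell cycle, was at 10329 and 8511 against 2122 and 2172 (-2.13, SE 0.14, adjusted p = 0.00217).

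For 9 of the 13 lower genes the parental mean was within 2-fold of PBRT15 only, and for the other 4 it was at least 2-fold above both lines. SPRY4 was among these 4, with 17224 and 14983 in the parental libraries. The 2 higher members were the phosphatase DUSP8 (93 and 173 against 591 and 514) and the cytokine IL11 (67.5 and 58.4 against 158 and 126). BRAF, the target of the drug, was not called. It was at 1498 and 1790 against 1959 and 1878 (log2 fold change 0.23, adjusted p = 0.338). NRAS was at 3602 and 3233 against 5453 and 5454 (0.68, adjusted p = 0.0244), under the fold of 2. NRAS was picked after its values were seen.

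Immediate early and AP-1 genes, many of which respond to growth signals, were lower in 6 of 32 members and higher in 1 (21.9% called). NR4A3, a nuclear receptor, was at 76.2 and 75.6 in PBRT15 and 5.51 and 9.54 in PBRT16, and the 1 higher member, the factor MAF, was at 109 and 175 against 589 and 804. Of 24 cyclins, CDKs and CDK inhibitors 2, CCND1 and CDKN1A, were lower and CDK18 was higher, while CCND3 was at 1370 and 1374 against 1060 and 889 and was not called (log2 fold change -0.5, adjusted p = 0.0632). This share, 12.5%, was near the 9.65% of all tested genes.

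**Figure D2:**
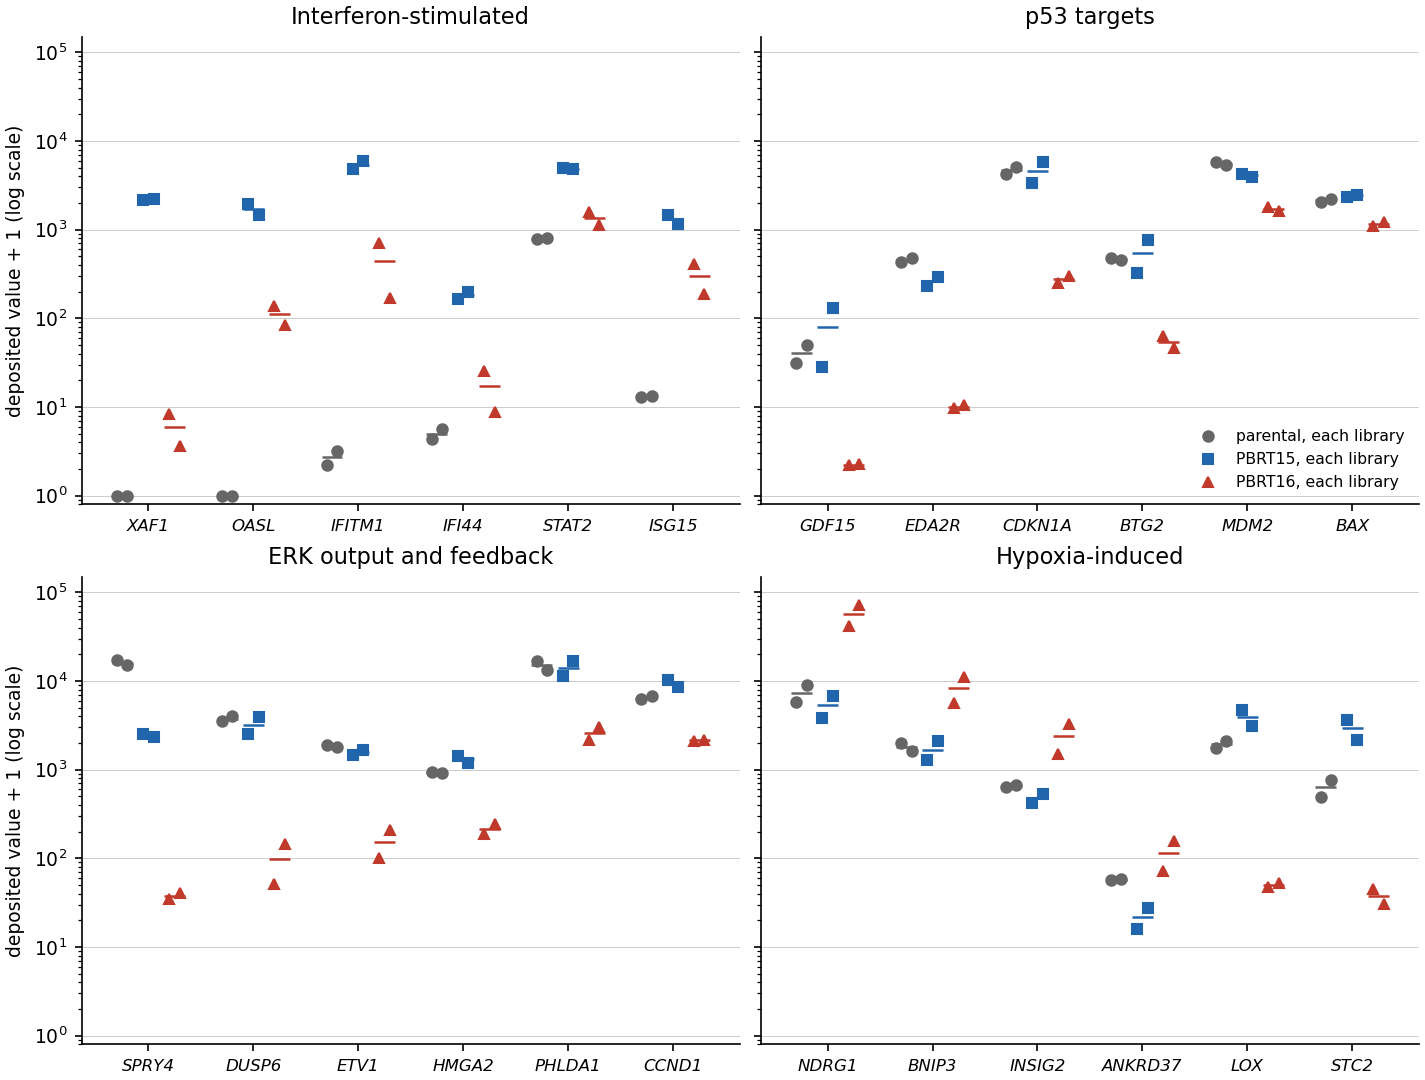
Value + 1 in each library (log axis, deposited signal) for 6 genes of each of 4 lists, with parental, PBRT15 and PBRT16 libraries as points and a short line at each group mean. Interferon-stimulated genes were highest in PBRT15, p53 and ERK genes were lowest in PBRT16, and the hypoxia genes NDRG1, BNIP3 and INSIG2 were highest in PBRT16 whereas LOX and STC2 were lowest there.

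Hypoxia-induced genes split. These genes are switched on by the factors HIF1A and EPAS1 when oxygen is short. Of 41 tested members 11 were higher in PBRT16 and 4 lower, with a median log2 fold change of 0.77. NDRG1, a stress-response gene, was at 3850 and 6800 in PBRT15 and 42206 and 72707 in PBRT16 (log2 fold change 3.44, SE 0.43, adjusted p = 0.0108). BNIP3, which promotes the removal of mitochondria, was at 1274 and 2079 against 5634 and 11125 (2.28, SE 0.41, adjusted p = 0.0255), and INSIG2, which holds back sterol synthesis, was at 421 and 525 against 1497 and 3268 (2.23, SE 0.38, adjusted p = 0.0233). The glycolytic genes ENO2, LDHA and PGK1 were also higher, close to the threshold (adjusted p = 0.0445, 0.0443 and 0.0458). LDHA was at 43814 and 47591 against 76177 and 123546. Among 32 tested glycolysis genes, replicate 2 was above replicate 1 in 29 in PBRT16 and in 27 in PBRT15.

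The 4 lower members had large changes. LOX, the enzyme that crosslinks collagen, was at 4658 and 3104 in PBRT15 and 46.1 and 51.3 in PBRT16 (log2 fold change -6.26, SE 0.23, adjusted p = 0.000399), and STC2, a secreted glycoprotein that also restrains release of insulin-like growth factors, was at 3677 and 2182 against 43.8 and 29.7. CA12, a carbonic anhydrase of the cell surface, was at 3439 and 6123 against 354 and 494. EPAS1 itself was lower, at 13807 and 14690 against 6123 and 6131 (-1.22, SE 0.11, adjusted p = 0.00481), while HIF1A had a change of 0.21 (adjusted p = 0.287). The growth factor VEGFA was at 3947 and 7042 against 8506 and 14262 and did not pass (1.06, adjusted p = 0.123). HIF1A and VEGFA were picked after their values were seen.

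The higher hypoxia genes also differed between libraries of a line. PBRT16 replicate 2 was above replicate 1 in 40 of the 41 members, and PBRT15 replicate 2 was above replicate 1 in 32. The number called higher fell to 1 without PBRT15 replicate 1, to 2 without PBRT15 replicate 2 and to 3 without PBRT16 replicate 2, without a parental library or with the PBRT libraries alone, and it was 14 without PBRT16 replicate 1, whereas the 4 lower genes were called in all of these fits.

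Collagen chains were lower in PBRT16 as a list, with 9 of 25 tested members lower, 2 higher and a median log2 fold change of -0.89. COL6A3, a chain of the bead-like type VI collagen, was at 474129 and 486261 in PBRT15 and 6924 and 6962 in PBRT16 (log2 fold change -6.11, SE 0.26, adjusted p = 0.000607). COL1A1 was at 60705 and 67057 against 9942 and 14432 (-2.41, SE 0.42, adjusted p = 0.0244), so the chains of type I collagen did not differ alike: PBRT16 had COL1A1 and hardly any COL1A2. The parental libraries were low for all of these, at 13.9 and 32.7 for COL1A1, 14 and 23.2 for COL1A2 and 68.7 and 117 for COL6A3. PBRT16 was thus above the parental level for COL1A1 and COL6A3 and near it for COL1A2. The 2 higher chains were COL12A1, a collagen on the surface of fibrils (2990 and 3098 against 14909 and 18125, 2.43, SE 0.14, adjusted p = 0.0014), and COL5A3 (179 and 139 against 658 and 598). The parental mean was at least 2-fold below both lines for 6 of the 9 lower chains. Without any 1 PBRT library 6 chains were called lower.

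Other matrix genes moved both ways. Of 42 matrix glycoproteins 10 were lower and 4 higher. AEBP1, a collagen-binding protein, was at 1275 and 1209 in PBRT15 and 10.2 and 2.15 in PBRT16, and the elastic fiber gene FBLN5 was at 1362 and 1196 against 414 and 337. TGFBI, a TGF-beta induced adhesion protein, was at 11913 and 12684 against 150660 and 195144 (log2 fold change 3.8, SE 0.16, adjusted p = 0.000585), and tenascin C (TNC) was at 2255 and 3363 against 20098 and 23600 (2.98, SE 0.24, adjusted p = 0.00347). FN1, which encodes fibronectin, was at 80548 and 86842 against 40549 and 60718 and did not pass (-0.75, adjusted p = 0.0748). Among the enzymes that process collagen, TGM2 was lower (8047 and 7607 against 420 and 519) and the procollagen peptidases ADAMTS2 (445 and 451 against 1767 and 2214) and BMP1 (983 and 965 against 2165 and 2444) were higher.

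Of 15 fibroblast markers 7 were tested and 5 were lower in PBRT16, with summed values of 116812 and 127003 in PBRT15 and 18816 and 25124 in PBRT16. The 5 were COL1A1, COL1A2, FAP, DCN and PDGFRA. The other 2 tested markers had a fitted change above 0 and were not called. Most of the summed value in PBRT15 came from COL1A1, COL1A2 and PDGFRA, so the sums say little about the remaining markers. FAP, a surface protease of activated fibroblasts, was at 192 and 190 against 0.603 and 5.04, and PDGFRA, the alpha receptor for platelet-derived growth factor, was at 14242 and 14763 against 3324 and 4339. In bulk RNA fewer cells of a type and less RNA per cell cannot be told apart, and the part of other cells in these values was not tested. The fibroblast genes LUM, DPT, PI16, MFAP5, TCF21, CFD, OGN and SFRP2 were under 5 in every PBRT library. Leaving out a PBRT15 library, whichever of the 2, left 2 markers called lower, and leaving out a PBRT16 library left 3.

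Adhesion genes moved both ways. Of 34 immunoglobulin-type adhesion molecules 9 were higher and 4 lower. L1CAM, an adhesion molecule of neurons and of motile tumor cells, was at 4571 and 4422 in PBRT15 and 23097 and 25295 in PBRT16 (log2 fold change 2.43, SE 0.17, adjusted p = 0.0025), and CADM3 was at 132 and 117 against 2255 and 2007. VCAM1, the ligand of the leukocyte integrin alpha 4 beta 1, was lower, at 2197 and 2791 against 71.5 and 49.2 (-5.36, SE 0.43, adjusted p = 0.00347). Integrins and laminins were split at 4 and 4 of 34. ITGA6, a laminin receptor chain, was at 24013 and 19522 against 959 and 1190 (-4.34, SE 0.17, adjusted p = 0.000511), and ITGB3, a receptor chain for vitronectin, was at 3040 and 3195 against 12812 and 14853 (2.15, SE 0.20, adjusted p = 0.00554). The neuronal cadherin CDH2 was not called (123 and 80.9 against 111 and 127), while CDH6 was lower (6274 and 4877 against 191 and 611).

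WNT pathway genes were lower in 13 of 41 tested members and higher in 3, with a median log2 fold change of -0.34. NKD2, an intracellular antagonist of WNT signaling, was at 425 and 483 in PBRT15 and 1.02 and 0 in PBRT16. The ligand WNT7B was at 788 and 329 against 39.4 and 35.3 (log2 fold change -3.73, SE 0.42, adjusted p = 0.00834), the coreceptor LRP5 at 2611 and 3809 against 307 and 367 (-3.23, SE 0.35, adjusted p = 0.00773) and the receptor ROR2 at 270 and 404 against 12.7 and 64.1. WNT5A, a ligand of noncanonical signaling through ROR2, was at 15390 and 14115 against 8854 and 9186, a change under the fold of 2 (-0.71, SE 0.11, adjusted p = 0.0197). The higher members were WNT9A (27.4 and 59.2 against 263 and 338) and the antagonists NOTUM and SFRP4, and 0 members were called higher when a PBRT16 library, whichever of the 2, was left out.

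Genes of TGF-beta and BMP signaling were changed in both directions, 7 higher and 8 lower of 54. Higher members included INHBB, a subunit of activin (1003 and 1006 against 4263 and 3704), and PMEPA1, a feedback gene of TGF-beta (1253 and 1413 against 3753 and 4659). Lower members included BMPR1B (152 and 127 against 5.76 and 10.9) and BMP4 (167 and 126 against 28.2 and 18.4). Among genes of the insulin-like growth factor system 4 of 20 were lower and 0 higher. IGF2, a fetal growth factor, was at 2042 and 2142 in PBRT15 and 5.8 and 9.47 in PBRT16 (log2 fold change -7.95, SE 0.22, adjusted p = 0.000187), with 3172 and 3215 in the parental libraries. IGFBP5, which binds such factors, was among the most abundant transcripts of PBRT15 at 393408 and 296353 and was at 111080 and 84163 in PBRT16 (-1.82, SE 0.22, adjusted p = 0.01).

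Receptor tyrosine kinases gave 3 higher and 6 lower of 37. Of the 37, 6 passed the minimum in 1 line alone, among them ROS1 and LTK. MET, the receptor for hepatocyte growth factor, was at 1086 and 796 in PBRT15 and 2156 and 2412 in PBRT16 (log2 fold change 1.29, SE 0.22, adjusted p = 0.0226). ROS1 was listed at 0 in both PBRT15 libraries and at 89.3 and 59.7 in PBRT16. FGFR2 (147 and 130 against 23.3 and 23.2), FGFR3 (157 and 136 against 35.3 and 36.6) and LTK (291 and 275 against 8.34 and 4.25) were lower. Receptors often raised in dedifferentiated melanoma did not pass: EGFR was at 3888 and 4115 against 4959 and 5148 (0.34, adjusted p = 0.107), AXL at 10403 and 6847 against 17090 and 13949 (0.87, adjusted p = 0.0789) and PDGFRB at 3023 and 3557 against 5447 and 6253 (0.83, adjusted p = 0.109). The ligands of the PDGF receptors went opposite ways, with PDGFB higher as given above, PDGFA lower (2365 and 1997 against 710 and 935) and PDGFD at 64.3 and 57.6 against 0 and 0.942.

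Of NF-kB subunits and feedback genes 5 of 28 were higher and 0 lower, with a median log2 fold change of 0.24. BIRC3, an apoptosis inhibitor and NF-kB target, was at 347 and 322 in PBRT15 and 1866 and 1481 in PBRT16 (log2 fold change 2.31, SE 0.15, adjusted p = 0.00217). TRAF1, a signaling adaptor, was at 105 and 106 against 1071 and 764 (3.08, SE 0.22, adjusted p = 0.00257). NFKB2 and MAP3K14, the subunit and the kinase of the noncanonical branch, were at 560 and 722 against 1458 and 1240 and at 1245 and 1315 against 2962 and 2445. TNIP1, an inhibitor of the pathway, was the last of the 5. The related inhibitors of apoptosis BIRC2 (0.48, adjusted p = 0.221) and XIAP (-0.11, adjusted p = 0.673) were not called. Without PBRT15 replicate 1 or PBRT16 replicate 1 the count was 2, and without PBRT16 replicate 2 it was 3.

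Of 41 cytokines and receptors 7 were higher and 4 lower. IL7R, the receptor for interleukin 7, was at 814 and 251 in PBRT15 and 4178 and 3286 in PBRT16 (log2 fold change 3.03, SE 0.56, adjusted p = 0.0272), and IL32 was at 953 and 686 against 4709 and 3859. The chemokine CXCL12, which attracts cells that carry CXCR4, was at 2271 and 2656 against 11508 and 11216 (2.21, SE 0.30, adjusted p = 0.0128), while CCL5, CXCL1 and CX3CL1 were lower. Checkpoint and immunosuppressive ligands were lower in 7 of 22 members and higher in 0. The list did not shift as a whole: its median log2 fold change was -0.06, with 11 members below 0 and 11 above. CD200, which restrains myeloid cells, was at 212 and 303 against 5.5 and 7.89 (-5.07, SE 0.24, adjusted p = 0.000891), and the tryptophan-degrading enzymes IDO1 (44.7 and 53.9 against 3.98 and 1.25) and TDO2 (85.5 and 64.7 against 4.66 and 15.9) were lower too. Of 26 antigen presentation genes 2 were higher and 1, the class II transactivator CIITA, was lower (234 and 176 against 43.5 and 77.4). With 11.5% called, this list was near the 9.65% of all tested genes. Of 13 immune cell markers 2 were tested, and CD3E and TYROBP were at 0 in the PBRT libraries. The list summed to 2743 and 2219 in PBRT15 and to 2178 and 3169 in PBRT16. CD8A made up little of these sums and was called higher, at 1.32 and 3.8 against 19.8 and 29.5. The other tested marker was not called.

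Developmental transcription factors outside the HOX clusters were lower in 18 of 81 tested members and higher in 2, with a median log2 fold change of -0.53. RUNX3 was at 255 and 259 in PBRT15 and 0.87 and 1.81 in PBRT16 (log2 fold change -6.82, SE 0.23, adjusted p = 0.000292), EYA4 was at 511 and 439 against 34.4 and 45.2 and TBX1 was at 30.8 and 26.3 against 0 in both libraries. Among regulators of the mesenchymal state, PRRX1 was at 760 and 804 against 10.2 and 9.88 (-6.14, SE 0.23, adjusted p = 0.000399) and PRRX2 at 225 and 219 against 1.79 and 0, whereas ZEB1 had a change of -0.08 (adjusted p = 0.708). Of 34 HOX genes 8 were lower and 1, HOXB9, was higher (26.5% called, beside 9.65% of all tested genes). Of the 8, 6 belonged to the HOXC cluster on chromosome 12, with HOXC10 at 795 and 692 against 272 and 281. The strongest change was in HOXB2 (242 and 217 against 7.06 and 4.61). Of 18 neural crest and glial genes 4 were lower and 1, the adhesion gene L1CAM, was higher. The lower ones included the transcription factor genes SOX9, at 2199 and 2072 against 764 and 1094, and SOX5, at 244 and 354 against 66.4 and 89.8. Of 16 pigment cell genes 3 were higher, MITF and the genes PIR and RRAGD, and MC1R, the receptor for melanocyte-stimulating hormone, was lower (846 and 757 against 307 and 383).

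Ion channels were changed in both directions, with 9 higher and 12 lower of 55. The cold-sensing channel TRPM8 was at 10.4 and 3.77 in PBRT15 and 233 and 280 in PBRT16, and the potassium channel subunit KCNE4 was at 124 and 152 against 1838 and 2061. The calcium channel genes CACNA1H (338 and 491 against 38 and 21.6) and CACNA1G (21.2 and 34.2 against 133 and 106), both of the T type, moved in opposite directions. Of 45 contractile genes 5 were higher, among them TPM1 (14352 and 11018 against 33021 and 26902) and MYLK (4693 and 4693 against 14028 and 12226), and 6 were lower, among them the focal adhesion gene TNS1 (858 and 1192 against 2.22 and 11.5). Of 35 metalloproteinases and inhibitors 4 were higher and 4 lower, with ADAM12 at 734 and 552 against 9067 and 12154 (log2 fold change 4.04, SE 0.22, adjusted p = 0.00122).

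Cell-surface and guidance genes were also split. Of 31 proteoglycan and hyaluronan genes 5 were higher and 5 lower: CSPG4, a proteoglycan of melanoma cells, was at 2067 and 2272 in PBRT15 and 5398 and 6111 in PBRT16 (log2 fold change 1.41, SE 0.13, adjusted p = 0.00493), while the hyaluronan synthase HAS2 was at 385 and 680 against 59.6 and 70.4. Of 48 axon guidance genes 4 were higher and 5 lower, with the ephrin EFNB2 at 1842 and 1168 against 52.9 and 57.3 (-4.71, SE 0.25, adjusted p = 0.00122). NOTCH and Hedgehog genes were lower in 4 of 29 members, among them GAS1, a Hedgehog coreceptor (2018 and 2285 against 271 and 288), and higher in 1. Of 21 complement genes 5 were lower, among them the inhibitor CFI (421 and 660 against 18.8 and 55.5), and 2 were higher, among them the protease MASP1 (1179 and 1029 against 5946 and 6349). YAP and TEAD pathway genes were near the background, with 1 higher and 3 lower of 38.

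Metabolic lists were called at shares near or above the 9.65% of all tested genes. Of 38 NRF2 target and glutathione genes 2 were higher and 2 lower. The chains of the cystine transporter, SLC7A11 (207 and 375 against 2345 and 2549) and SLC3A2 (1540 and 1877 against 3881 and 3759), were the higher ones, while the quinone reductase NQO1 was lower (36618 and 39624 against 11676 and 10051). Of 42 cholesterol and fatty acid genes 6 were lower and 1 higher (16.7% called). The fatty acid synthase FASN was at 18927 and 12939 against 3689 and 6887 (log2 fold change -1.63, SE 0.35, adjusted p = 0.0385). Libraries of a line differed here too: replicate 2 was above replicate 1 in 36 of the 42 genes in PBRT16 and in 9 in PBRT15. The summed values overlapped, at 252413 and 226334 in PBRT15 and 141202 and 228124 in PBRT16. Of 32 glycolysis genes 3 were higher and 2, PFKM and PFKFB2, lower (15.6% called).

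Lists of growth and division genes held almost no calls. None of 53 DNA replication genes, 49 mitosis genes, 80 cytosolic ribosomal proteins and 13 mitochondrially encoded genes was called, with medians of -0.03, -0.08, 0.1 and 0.04. The ribosome biogenesis list of 49 tested genes also held the MYC antagonist MXI1, which was its only called member. MYC was at 1118 and 1344 against 1522 and 2410 (0.64, adjusted p = 0.149). The mitosis genes did differ between libraries of the same line: replicate 1 was above replicate 2 in all 49 in PBRT15 and in all 49 in PBRT16, with summed values of 259800 and 189487 in PBRT15 and 241341 and 168062 in PBRT16. A gene that was not called is not shown to be equal in both lines.

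**Figure D3:**
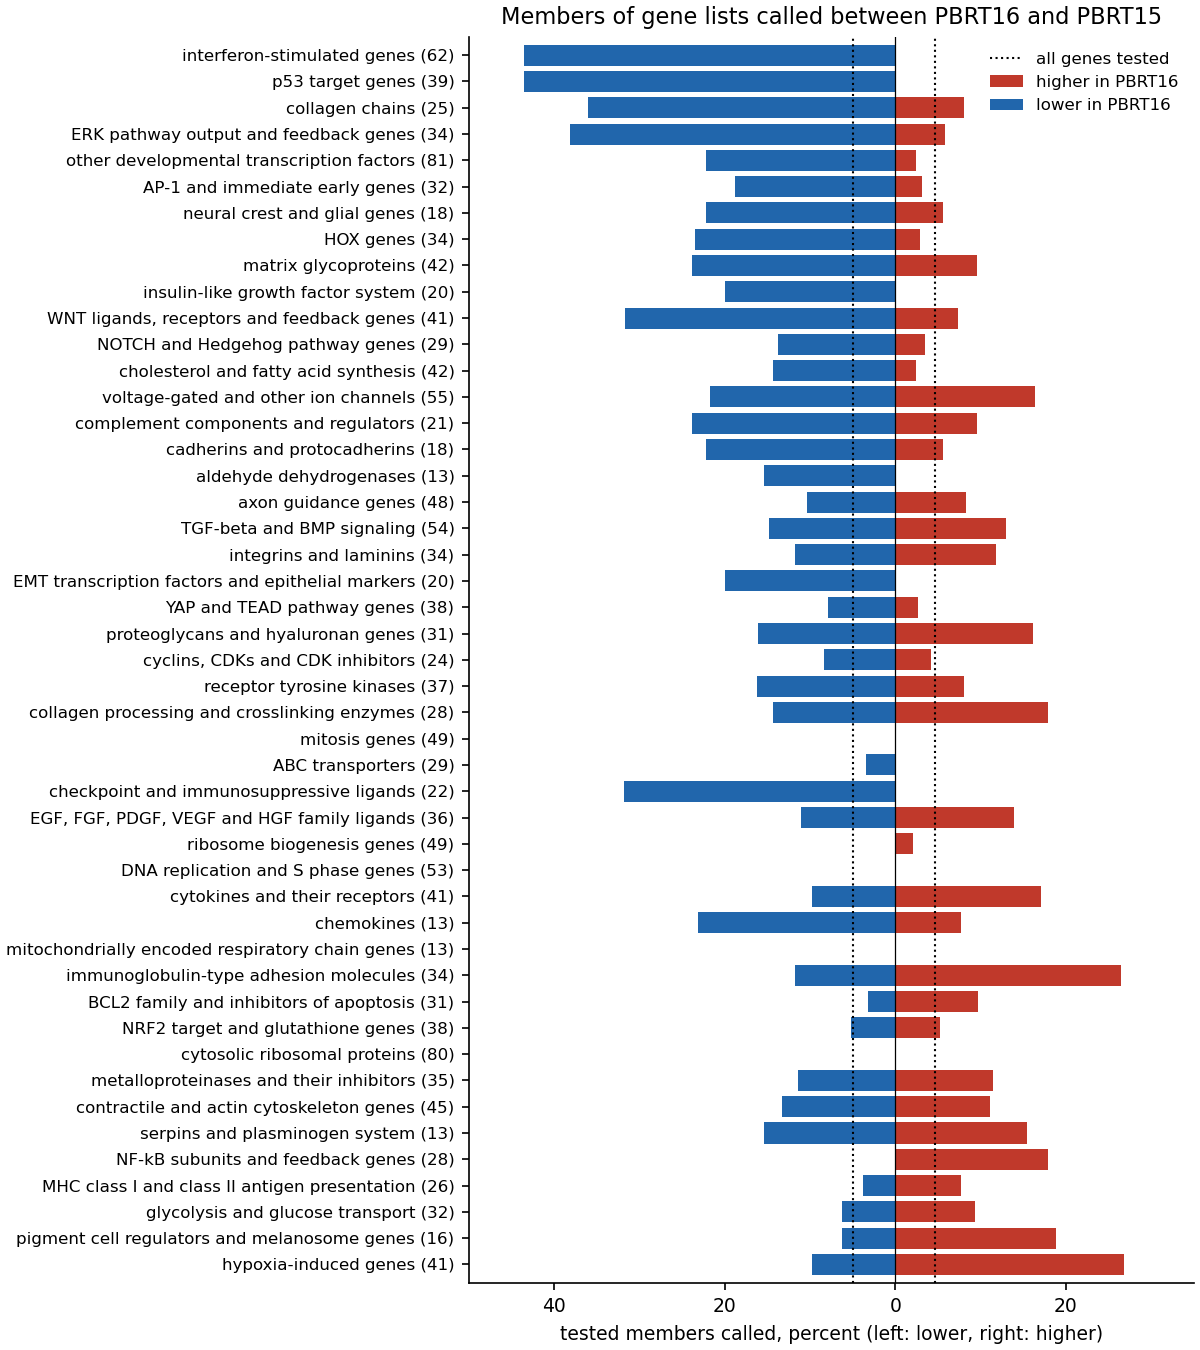
Percentage of tested members called higher (red) or lower (blue) in PBRT16 for each gene list with 10 or more tested members; dotted lines mark the share among all 15913 tested genes (4.66% higher, 5.0% lower). Interferon-stimulated genes and p53 targets reached 43.5% and 43.6% lower with none higher, and hypoxia-induced genes had 26.8% higher.

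Long noncoding genes were called at 12.3% of 2009 tested (140 higher and 107 lower), against 9.4% of 13080 protein-coding genes. Calls were more common at low level, as given above, and these classes were not compared at equal level. Among the largest, LINC01151 was at 0 and 3.67 in PBRT15 and 318 and 246 in PBRT16, and FAM230C was listed at 0 in both PBRT15 libraries and at 74.7 and 72.3 in PBRT16. PKD2L2-DT had 42 and 44.1 in PBRT15, and both PBRT16 libraries listed it at 0.

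The parental level shows from which side the lines came apart. Of the 741 genes higher in PBRT16, the parental mean lay within 2-fold of PBRT15 only for 221 (29.8%) and of PBRT16 only for 181 (24.4%). Of the 795 lower genes it lay within 2-fold of PBRT15 only for 172 (21.6%) and of PBRT16 only for 224 (28.2%). It was at least 2-fold below both lines for 132 higher genes (17.8%) and 169 lower genes (21.3%), and at least 2-fold above both for 71 (9.58%) and 84 (10.6%). Parental cells had DMSO and the lines had drug, so drug and line cannot be told apart in this placement.

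**Figure D4:**
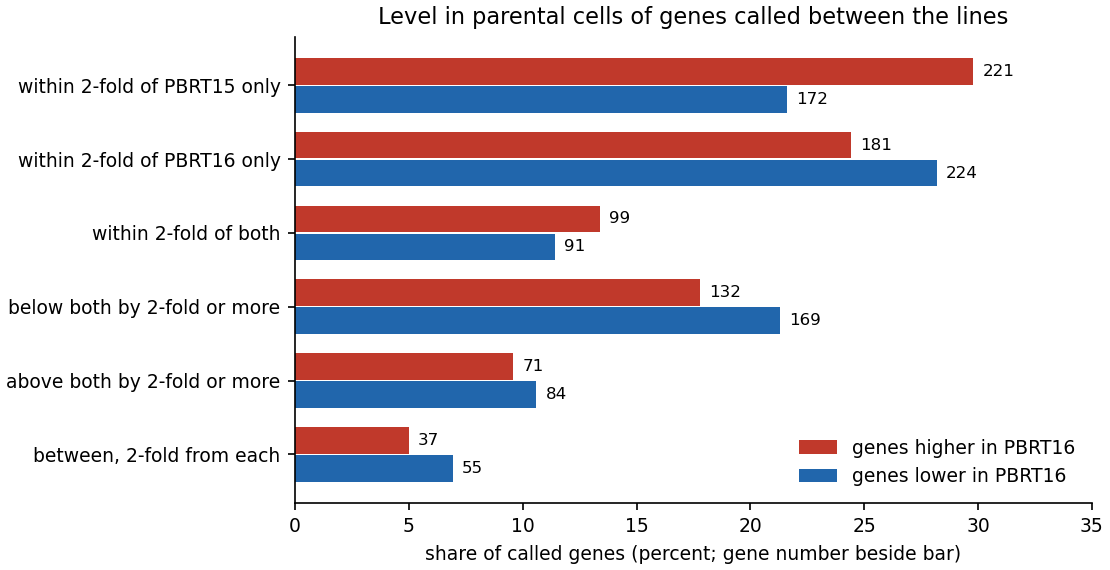
Percentage of the genes called higher and of those called lower in PBRT16 whose parental mean was within 2-fold of PBRT15 only, of PBRT16 only, of both, between them, or at least 2-fold below or above both lines. No position held more than 29.8% of the genes of a direction.

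Lower genes were not spread evenly along the chromosomes. Coding genes with a mean of at least 20 (12397 genes, GRCh38 coordinates) were ordered by start, and the median log2 fold change was taken over 461 runs of 50 neighbours. The median of the runs was 0.03, and 5% of runs were below -0.51 while 5% were above 0.16. All 62 runs with a median of -0.3 or less, a limit set after the runs were seen, lay in 4 stretches on 3 chromosomes. On chromosome 12 they covered positions 280057 to 25250936 and 25958232 to 133159465, on chromosome 1 positions 144887265 to 247172020 and on chromosome 19 positions 20776304 to 58555105.

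The shift in these stretches was small per gene and wide in extent. In the longer stretch of chromosome 12 the median over 525 genes was -0.55 and 455 genes (86.7%) were below 0, and 101 of its 666 tested genes (15.2%) were called lower against 12 higher. On chromosome 1 the median was -0.48 over 550 genes with 86.5% below 0, and on chromosome 19 it was -0.52 over 450 genes with 85.8% below 0. All 4 pairs of a PBRT16 with a PBRT15 library gave medians from -0.46 to -0.49 on chromosome 1. The stretches held 13.0% of tested genes but 221 (27.8%) of the lower genes and 60 (8.1%) of the higher ones. Inside them 10.6% of genes were lower, and outside 4.15%.

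The side from which the shift arose differed. On chromosome 1 PBRT16 was below the parental cells (median -0.55) and PBRT15 near them (-0.11). In the longer stretch of chromosome 12 PBRT15 was above the parental cells (0.55) and PBRT16 near them (-0.04), and on chromosome 19 the values were 0.63 and 0.16. Outside the stretches both medians were within 0.03 of 0. These medians share the parental libraries and were not tested.

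The lowest run, positions 51238724 to 55757264 of chromosome 12, had a median of -1.05 with 23 of 50 genes lower and 3 above 0. It held the growth factor binding gene IGFBP6 (797 and 900 against 156 and 168), the keratin gene KRT18 (3291 and 3112 against 907 and 819) and CSAD, an enzyme of taurine synthesis (283 and 326 against 67.6 and 86.9). The run before it, positions 47075707 to 51218062, had a median of -0.9 with 15 of 50 lower, led by the adhesion gene AMIGO2 (920 and 568 against 109 and 139). The highest run, positions 59788747 to 72355149 of chromosome 10, reached 0.33.

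The stretches touched some lists more than others. Of the p53 targets 10 lay inside, 6 of them lower, and outside 11 of 29 were lower with a median of -0.66. Of the ERK genes 5 of 6 inside and 8 of 28 outside were lower. Among the p53 and ERK genes named above, BTG2, MDM2, BAX, DUSP6 and IL11 lay inside, while CDKN1A, EDA2R, GDF15, FAS, SPRY4, ETV1 and CCND1 lay outside. Interferon-stimulated genes kept 23 lower of 56 outside with a median of -1.01, and the 25 collagen chains all lay outside. The HOX genes changed most, with 6 of 8 lower inside and 2 of 26 outside.

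**Figure D5:**
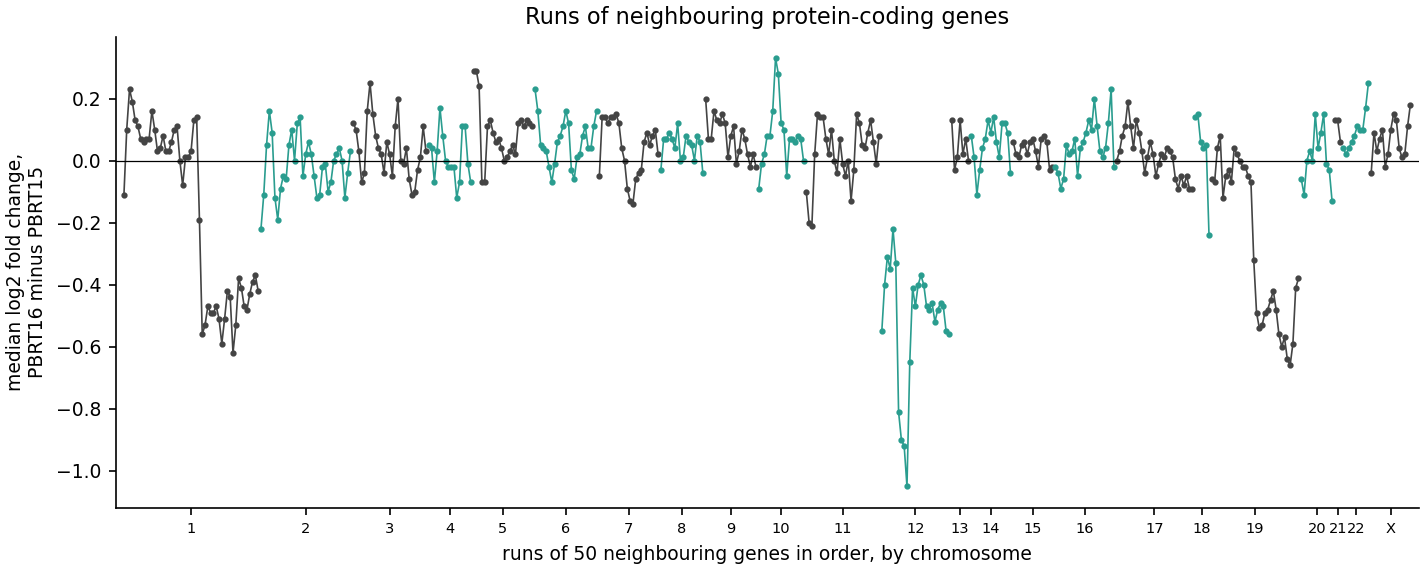
Median log2 fold change (PBRT16 minus PBRT15) of each of 461 runs of 50 neighbouring coding genes, ordered along the chromosomes; the horizontal axis gives the order of runs and the thin line marks 0. All but 1 of the runs on chromosome 12 and the runs on part of chromosomes 1 and 19 lie at -0.3 or less, and no other run does.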

How the data were processed

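RNA-seq of 6 libraries was used, 2 each of parental, PBRT15 and PBRT16 cells. The study made stranded paired-end mRNA libraries and estimated gene expression by RSEM, using GRCh38 and GENCODE. The submitters' notes also name STAR 2.6.1a, Picard and DESeq2. The deposited values are a normalized signal per gene, not whole counts. How the authors normalized them is not stated in the sources used. In each library 34.4% to 64.2% of the values up to 10.5 steps lay within 0.05 of a whole step, so reads could not be recovered, no count test was run, depth is unknown and no counting interval is given. Values summed to 27877963 to 29580752 per library, and median-of-ratios factors were 1.0004 to 1.0132. Mitochondrial genes took 4.09% to 4.53% in the PBRT libraries.

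IDs were matched without version to GENCODE v44 for names and coordinates (60357 of 60617 matched, 49802 of them with the version), after 45 pseudoautosomal copies were left out. Log2(value + 1) was fitted in 3 groups by limma 3.58.1 (R 4.3.3) with 3 residual and 2.01 prior degrees of freedom, two-sided, and p-values were adjusted by Benjamini-Hochberg over 15913 genes. Folds on this scale understate the change of low genes. Runs of neighbouring genes and the parental position are descriptions with no test. The fit was tested on simulated data: with 200 of 15913 genes changed in each of 5 simulations of PBRT16 minus PBRT15, it found 82.8% of 4-fold and 21.4% of 2-fold changes, and 4.8% of calls were false. The simulations changed fewer genes than the 1536 called here. Their spread did not follow the level, and their libraries shared no shift across genes. These shares therefore need not hold for the data.

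The members, the gene lists and the tests were chosen with earlier results of these data known. Genes could be named from the 15 largest coding changes in each direction with a mean of at least 100 in the higher line and no overlap between lines, the 5 largest called members of each list in each direction, a fixed set of melanoma, ERK and apoptosis genes, the 3 largest of each run described and the 5 largest long noncoding RNAs, and the text leaves some out. IFI44L is named for its promoter. Alternatives were other pseudocounts, filters, scalings, spread models and fold thresholds, the 4 PBRT libraries alone, a replicate block and each library left out. Promoters were RefSeq windows.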

Additional observations from a re-analysis of the deposited data

How the results depend on the processing

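With no fold threshold, 1289 genes passed as higher and 1443 as lower. Leaving out 1 of the 6 libraries gave 348 to 621 higher and 485 to 729 lower genes, against 741 and 795 with all; fewer libraries leave fewer degrees of freedom, and a line left with 1 library is assumed to vary like the other groups. Other settings stayed within 1.5 times: pseudocounts of 0.5 (711 and 775) and 5 (765 and 855), no filter (569 and 637), a minimum of 50 (598 and 670), scaling to the library total (777 and 761) or by median of ratios (746 and 799), the 4 PBRT libraries alone (621 and 729) and a spread that follows the level (810 and 880). Over the fits that left out 1 library, CDH2 ran from -0.05 to 0.55 (0.25 with all), XIAP from -0.29 to 0.07 (-0.11) and VIM from -0.07 to 0.05 (-0.01), and VIM was 0.03 with scaling to the library total. None of these 3 was called in the fit of 6 libraries. The lowest run median was -1.17 with 25 genes per run and -0.85 with 100, and the highest 0.41 and 0.25, against -1.05 and 0.33; longer runs average over more genes. Across all genes, replicate numbers of PBRT15 and PBRT16 libraries deviated together weakly (correlation 0.138, and 0.014 and 0.031 with the parental libraries). Some lists shared a direction more strongly. Replicate 1 was above replicate 2 in all 49 mitosis genes of both lines, and replicate 2 was above in 40 and 32 of 41 hypoxia genes in PBRT16 and PBRT15. Cholesterol and fatty acid genes went opposite ways, with replicate 2 above in 36 of 42 in PBRT16 and 9 in PBRT15. Nothing says that a number marks a shared day, so the numbers were not taken as pairs. A replicate block gave 670 higher and 741 lower genes, of which 632 and 705 were called without it. Without the filter, 17 interferon-stimulated, 5 collagen and 8 WNT genes were called lower and 2 hypoxia and 3 NF-kB genes higher; with a spread that follows the level, 17 hypoxia genes were higher.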
